A study of Mus musculus with 29 samples.

Results

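The muscle genes Myod1, Myog, Myf5, Myf6, Mef2c, Des, Ckm, Actc1, Chrna1 and Cdh15 were examined for binding of HA-tagged transcription factors in NIH-3T3 cells, which are mouse fibroblasts and not a muscle line. These 10 genes, of 21938 protein-coding genes on chromosomes 1 to 19, X and Y, were picked by name as muscle genes with E-box control. Their peaks were not the rule of choice, but earlier results of these data were known. For each gene a window was taken from the gene record plus 20 kb on either side, on mm10 (GRCm38, GENCODE vM21). The windows covered 0.609 Mb in 9 separate stretches, because the windows of the neighbouring genes Myf5 and Myf6 overlap and hold the same 3 peaks.

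All libraries came from NIH-3T3 cells in which a transgene was switched on overnight with doxycycline at 500 ng/ml. In each line a lentiviral transgene coded for 1 factor with HA tags at its C-terminus in cells that also expressed rtTA3G. Chromatin was fixed with 1% formaldehyde and precipitated with an anti-HA antibody (ChIP-seq). Of 24 constructs, 4 had 2 peak lists each, namely SOX2-HA, OCT4-HA, BHLHB8-HA and FOXA1-HA. The other 20 had 1 list each, which makes 28 lists. These 20 were BRACHYURY-HA, CDX2-HA, DLX1-HA, DLX6-HA, DUXBL-HA, EBF1-HA, HLF-HA, MAX-HA, NANOG-HA, PRR3-HA, RHOX11-HA, SIX6-HA, SOX15-HA, TEAD1-HA, THAP4-HA, TOX3-HA, ZFP319-HA, the FOXA1 mutants FOXA1_RR-HA and FOXA1_SW-HA, and OCT4-HA made together with SOX2-YPET. The lists held 304922 peak positions in all, from 52 to 61991 per list, with no height, score or read number, so sequencing depth is unknown. For a construct with 1 list there is no replicate error, and every comparison below is a description without a test.

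Myod1, Myog, Myf5 and Myf6 encode the myogenic regulatory factors, basic helix-loop-helix (bHLH) proteins that pair with E proteins and bind the E-box CANNTG in the control regions of muscle genes. Mef2c encodes a MADS-box factor that acts with them, and the other genes encode products of differentiated muscle or its precursors. BHLHB8, also called MIST1 or Bhlha15, is a bHLH protein of secretory cells that binds E-boxes, and it is known to hold back MyoD activity. DLX1 is a homeodomain protein of the distal-less family and binds AT-rich letters.

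Overlapping peaks of both BHLHB8-HA lists were found at 6 sites, of which 4 lay in the window of Chrna1, 1 in that of Des and 1 in that of Cdh15. The sequences below show the E-boxes at the centre of each overlap, not those of the whole site. Each line gives the central 200 bp at most of the stretch covered by both lists, read from GRCm38, with every CANNTG in capitals.
Cdh15 intron, both BHLHB8-HA lists, chr8:122850771-122850970, plus strand: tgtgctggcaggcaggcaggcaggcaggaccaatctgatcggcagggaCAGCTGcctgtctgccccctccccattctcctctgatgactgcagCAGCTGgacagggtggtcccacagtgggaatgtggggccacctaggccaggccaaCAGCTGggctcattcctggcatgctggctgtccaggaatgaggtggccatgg
Chrna1 coding exon, both BHLHB8-HA lists, chr2:73574485-73574684, plus strand: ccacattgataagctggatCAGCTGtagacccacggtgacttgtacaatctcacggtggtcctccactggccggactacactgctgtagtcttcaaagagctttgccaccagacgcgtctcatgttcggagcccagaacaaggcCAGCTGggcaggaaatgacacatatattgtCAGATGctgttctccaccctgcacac
Chrna1 intron, both BHLHB8-HA lists, chr2:73572587-73572786, plus strand: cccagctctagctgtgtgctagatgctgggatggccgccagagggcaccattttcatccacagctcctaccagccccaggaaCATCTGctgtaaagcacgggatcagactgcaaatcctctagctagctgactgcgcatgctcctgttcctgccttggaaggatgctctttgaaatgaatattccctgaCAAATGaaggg
Des downstream, both BHLHB8-HA lists, chr1:75370409-75370608, plus strand: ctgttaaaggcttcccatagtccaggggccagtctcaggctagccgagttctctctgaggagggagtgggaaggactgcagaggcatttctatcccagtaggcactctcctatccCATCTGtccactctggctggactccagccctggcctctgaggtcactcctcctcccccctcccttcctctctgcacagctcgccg
Chrna1 upstream, both BHLHB8-HA lists, chr2:73592484-73592683, plus strand: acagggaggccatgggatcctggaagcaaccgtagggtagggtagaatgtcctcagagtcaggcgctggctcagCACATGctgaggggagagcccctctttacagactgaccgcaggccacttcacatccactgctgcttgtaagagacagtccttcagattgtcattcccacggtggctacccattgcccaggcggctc
Chrna1 downstream, both BHLHB8-HA lists, chr2:73553814-73553945, plus strand: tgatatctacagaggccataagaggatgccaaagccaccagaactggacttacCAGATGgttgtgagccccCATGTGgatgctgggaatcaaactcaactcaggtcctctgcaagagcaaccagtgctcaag
The Cdh15 stretch held 3 copies of CAGCTG, and the Chrna1 exon stretch held 2. No other of these 6 stretches held CAGCTG. At 2 of those other sites, peaks held it in their central 200 bp but outside the printed stretch. These were the replicate 1 peak at Des and the peaks of both lists downstream of Chrna1. Bases of the peaks beyond their central 200 bp are not covered by this count. In the central 200 bp of the shared peaks, CAGCTG was in 4 of 6 for replicate 1 and in 3 of 6 for replicate 2. The Chrna1 intron and Des stretches carried CATCTG, which is CAGATG read on the other strand, the upstream Chrna1 stretch carried CACATG, and the downstream stretch carried CAGATG beside CATGTG.

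Peaks of any list were present in the windows of all 10 genes, against 88.5% of protein-coding genes with windows made the same way. The windows held 84 peaks from 17 lists and 15 constructs. The 11 lists without a peak there were FOXA1-HA replicate 2, both FOXA1 mutants, MAX-HA, NANOG-HA, both OCT4-HA lists, PRR3-HA, RHOX11-HA, THAP4-HA and TOX3-HA. Among them MAX is a bHLH factor too, one that binds CACGTG, and its list of 3836 peaks had 0 in the windows, beside a density of 1.97 peaks per Mb over all protein-coding windows, at which few would fall in 0.609 Mb. By midpoint, 40 peaks lay between genes, 30 in introns, 11 in coding exons and 3 in UTRs. Of the 84 peaks, 5 were within 1 kb of the start of a member's gene record, and for 60 of the 84 the nearest coding start was that of a member. Among the 5, the TEAD1-HA peak at Ckm was nearer to a start of Klc3, at 46 bp. Chrna1 had 33 peaks, Mef2c 19, Des 12, Myod1 6, Cdh15 5, Myog, Myf5 and Myf6 3 each, Ckm 2 and Actc1 1.

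**Figure D1:**
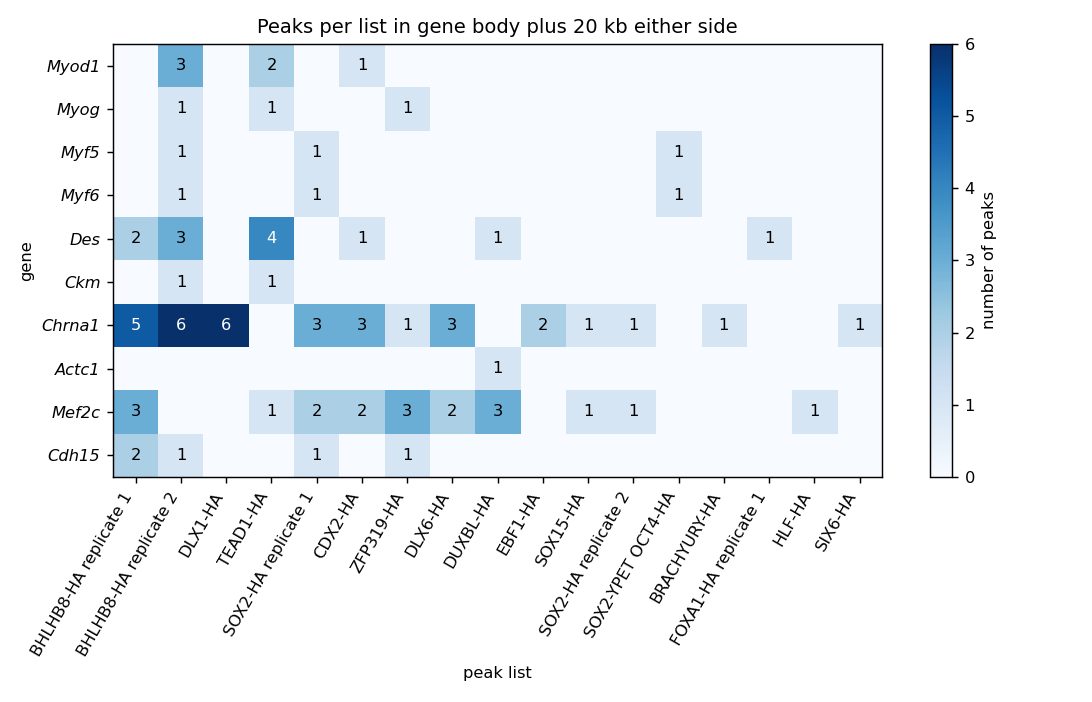
Number of peaks of each list (columns) in the window of each gene (rows), for the 17 lists with at least 1 peak. Darker cells hold more peaks and empty cells hold 0, the DLX1-HA column is filled only at Chrna1 with 6 peaks, and Myf5 and Myf6 share the same 3 peaks.

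BHLHB8-HA replicate 1 had 12 peaks in the windows and replicate 2 had 16, that is 19.7 and 26.3 peaks per Mb, against 24.4 and 32.3 per Mb over the windows of all protein-coding genes. At least 1 peak of replicate 1 was found for 4 of the 10 genes (67.9% of protein-coding genes). Replicate 2 reached 8 of the 10 (78.8%), and overlapping peaks of both lists reached 3 of the 10 (59.0%). A wide window catches more peaks, so each member was also set beside genes of like width, the narrower of both windows being at least 0.8 times the wider. Averaged over the 10 genes, 62.5% of such genes had a peak of replicate 1, 73.96% had a peak of replicate 2, and 54.1% had overlapping peaks of both. With 20 kb, the share of members was thus below both backgrounds for replicate 1 and for both lists together, and near them for replicate 2. These differences rest on 10 genes, of which Myf5 and Myf6 share their peaks, and were not tested. With a 50 kb flank the counts were nearer to the background, at 7 for replicate 1 (77.2% of protein-coding genes) and 6 for overlapping peaks (70.2%). With the gene record alone, 3 members had a replicate 1 peak (45.4%), 4 a replicate 2 peak (58.9%) and 2 overlapping peaks of both (36.3%).

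DLX1-HA had 6 peaks in the windows, 9.85 per Mb against 9.96 per Mb over all protein-coding windows, and all 6 lay at Chrna1. This 1 gene of 10 compares with 46.5% of protein-coding genes, and with 41.9% of genes of like width on average. With a 50 kb flank 6 of the 10 genes had a DLX1-HA peak (60.5%). With 20 kb, the density of DLX1-HA peaks over the members together was therefore close to the background, while the number of members reached was below it. With 50 kb that number was near the background. These counts over 10 genes were not tested.

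Among the regulators, Myod1, the master regulator of the myoblast fate, had 0 peaks of BHLHB8-HA replicate 1 and 3 of replicate 2. The replicate 2 peaks were centred 10.8 kb upstream and 4.41 and 16.8 kb downstream of its start, and the last of these is nearer to the start of Kcnc1. The nearest replicate 1 peaks were 24.1, 39.3 and 51.7 kb away from them. A CDX2-HA peak lay 14.7 kb upstream, and TEAD1-HA had a peak over the coding exon, 588 bp from the start, and another over the UTR of Kcnc1. The peak closest to Myod1 in replicate 2 is shown because it held CAGCTG and CACATG, in capitals, although the other list had no peak there.
Myod1 downstream, BHLHB8-HA replicate 2 peak, chr7:46380780-46380979, plus strand: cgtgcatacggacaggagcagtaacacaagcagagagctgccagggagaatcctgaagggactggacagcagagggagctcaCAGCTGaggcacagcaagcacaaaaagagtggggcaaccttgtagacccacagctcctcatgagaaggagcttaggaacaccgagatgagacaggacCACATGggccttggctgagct
Replicate 1 had no peak within 20 kb of Myod1, while 55.3% of genes of like width had a peak of it. In the 50 kb window Myod1 had 2 peaks of replicate 1, 5 of replicate 2 and 2 of DLX1-HA.

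Myog, which encodes myogenin, a factor of terminal differentiation, had 1 peak of replicate 2, over its UTR 1.86 kb from the start, and 0 of replicate 1. Its other peaks were 1 of ZFP319-HA 19.6 kb upstream and 1 of TEAD1-HA over an exon of Ppfia4. For Myf5, which acts early in the muscle lineage, the replicate 2 peak was 744 bp upstream of the start and held the E-box CACGTG. The same peak was 7.86 kb downstream of the start of Myf6, whose product is MRF4. A peak of OCT4-HA made with SOX2-YPET lay over the coding exon of Myf6, 189 bp from its start, and SOX2-HA replicate 1 had a peak 7.74 kb upstream of it. None of the 4 myogenic regulatory factor genes had a replicate 1 or DLX1-HA peak within 20 kb, and their replicate 2 peaks had none of replicate 1 within 24 kb.

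Mef2c showed the opposite pattern between the duplicate lists. Its 203 kb window held 3 peaks of replicate 1 and 0 of replicate 2, although 89.5% of genes of like width had a replicate 2 peak, with a median of 6. The replicate 1 peaks lay 62.2, 100.3 and 151.5 kb into the gene, and the nearest replicate 2 peaks were 282, 243 and 192 kb away. With a 50 kb flank the counts were 5 and 0. The first of the 3 peaks lay in a site shared with DLX6-HA, DUXBL-HA and SOX2-HA replicate 1, and the next in a site shared with DLX6-HA, SOX15-HA and both SOX2-HA lists. The first is printed because its centre held 3 E-boxes, among them CAGCTG and CATATG, in capitals.
Mef2c intron, BHLHB8-HA replicate 1 peak, chr13:83566151-83566350, plus strand: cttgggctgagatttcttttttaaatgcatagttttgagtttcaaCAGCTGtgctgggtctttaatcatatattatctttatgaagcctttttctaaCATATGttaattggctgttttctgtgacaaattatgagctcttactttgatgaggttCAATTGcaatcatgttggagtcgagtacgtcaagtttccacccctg
The centre of each of the other Mef2c peaks of replicate 1 held no CANNTG. All lists together had 19 peaks in the window, against a median of 27 for genes of like width.

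Of the genes for muscle products, Des, which encodes the intermediate filament protein desmin, had 2 peaks of replicate 1 and 3 of replicate 2. The peaks agreed at 1 site, chr1:75370101-75370803, 10.1 kb downstream of the start and between Des and Speg, with its nearest coding start that of Speg. A replicate 1 peak 2.97 kb upstream of Des overlapped a FOXA1-HA replicate 1 peak, and the nearest replicate 2 peak was 5.05 kb away. TEAD1-HA had 4 peaks in the window, 1 over the first part of Des, 390 bp from the start, and 3 over coding exons of Speg. Ckm, the gene for muscle creatine kinase, had 1 peak of replicate 2, 25.2 kb from the start of its gene record and in an intron of Mark4. Its other peak, of TEAD1-HA, lay 46 bp from a start of Klc3. Actc1, the gene for cardiac alpha actin, had 1 peak in all, of DUXBL-HA, 9.35 kb upstream. Windows of the width of Actc1 held a median of 6 peaks, and 82.1% of such genes had at least 1.

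Cdh15, which encodes M-cadherin of muscle precursor cells, had 2 peaks of replicate 1 and 1 of replicate 2. They agreed at chr8:122850679-122851026, in an intron 2.89 kb from the start, over the stretch with 3 copies of CAGCTG. The overlap covered 96.7% of the replicate 1 peak and 86.4% of the replicate 2 peak. The remaining replicate 1 peak lay 3.73 kb from the start and 0.845 kb from the replicate 2 peak, and it held CAGCTG as well. The only other peaks were of ZFP319-HA and SOX2-HA replicate 1, at 17.9 kb upstream and 28.8 kb downstream.

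**Figure D2:**
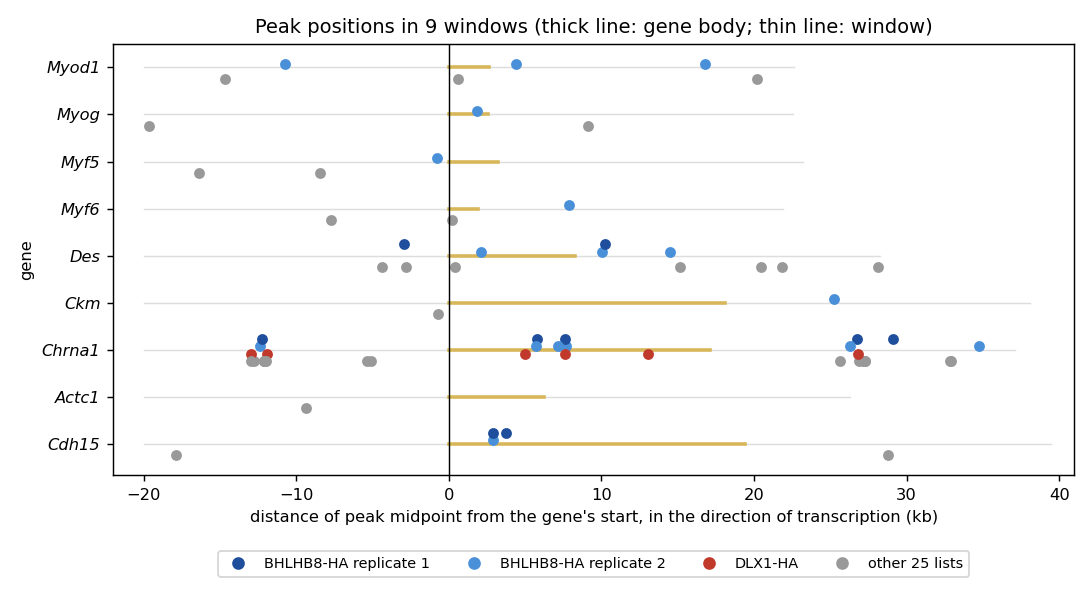
Midpoints of peaks against the distance from the start of the gene record, in kb and in the direction of transcription, for every gene but Mef2c, whose window is wider. Colours give the list, thick lines the gene bodies and thin lines the windows, and only at Des, Chrna1 and Cdh15 do dots of the 2 BHLHB8-HA lists lie side by side.

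Chrna1, which encodes the alpha subunit of the muscle acetylcholine receptor, held 33 of the 84 peaks, from 12 lists and 10 constructs. Genes of like width had a median of 9 peaks, and 3.44% of 9727 such genes had as many. It had 5 peaks of replicate 1, 6 of replicate 2 and 6 of DLX1-HA. As many DLX1-HA peaks were present at 0.442% of the genes of like width, as many replicate 1 peaks at 12.8% and as many replicate 2 peaks at 10.2%. The peaks lay in 3 groups: about the middle of the gene, upstream of its start, and downstream of its end.

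In the gene body, the lists of BHLHB8-HA agreed over a coding exon at chr2:73574385-73574867, 5.71 kb from the start, where no other construct had a peak. They agreed again in an intron at chr2:73572509-73572855, 7.66 kb from the start, together with DLX1-HA. Here the DLX1-HA peak is shown because it is the only one of the 6 with TAATTA, letters of the kind homeodomain proteins bind, and they follow a CATATG. Over the genome, TAATTA was in the central 200 bp of 8.30% of all DLX1-HA peaks. Evenly spaced windows of that length held it in 7.32%, so its presence here does not set the peak apart. Capitals mark E-boxes and TAATTA.
Chrna1 intron, DLX1-HA peak, chr2:73572615-73572814, plus strand: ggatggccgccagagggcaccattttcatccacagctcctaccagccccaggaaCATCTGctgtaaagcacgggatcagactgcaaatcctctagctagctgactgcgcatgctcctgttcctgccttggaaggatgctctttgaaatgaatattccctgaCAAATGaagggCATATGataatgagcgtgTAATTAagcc
DLX1-HA had another pair of intron peaks, at chr2:73567204-73567397 and chr2:73575217-73575415, without a peak of any other construct. Upstream, the site chr2:73592029-73593635, 12.5 kb from the start, held 10 peaks of 5 constructs, namely BHLHB8-HA (both lists), DLX1-HA, DLX6-HA, EBF1-HA and SOX2-HA (both lists). The replicate 1 peak lay wholly within the replicate 2 peak there. Downstream, the site chr2:73552796-73554283, 26.8 kb from the start and 23.8 kb from that of Wipf1, held peaks of 7 constructs: BHLHB8-HA (both lists), BRACHYURY-HA, CDX2-HA, DLX1-HA, DLX6-HA, SOX15-HA and SOX2-HA replicate 1. This site is a chain of merged peaks, with no stretch covered by all of them. The BHLHB8-HA replicate 2 peak overlapped only that of replicate 1. The BRACHYURY-HA, DLX6-HA and SOX15-HA peaks did not overlap the DLX1-HA peak. The BHLHB8-HA peaks overlapped by 132 bp, which is 18.4% of the replicate 1 peak. The upstream and downstream sites were the only ones with 5 or more constructs in the windows, where 45 of 53 merged sites held 1 construct. Over the genome most merged sites also held 1 construct, 128680 of 168546.

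**Figure D3:**
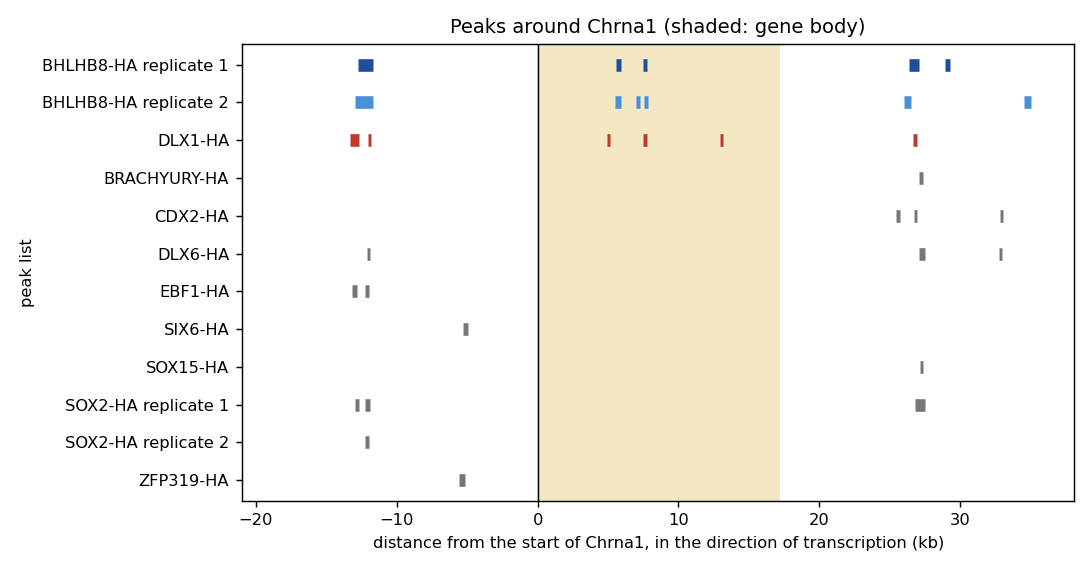
Peaks around Chrna1 by list, drawn to scale as bars against the distance from the start of the gene in kb, with the gene body shaded. Peaks of several lists lie close together about 12 kb upstream and 27 kb downstream, without all overlapping each other, and in the gene body only BHLHB8-HA and DLX1-HA have peaks.

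Of the 6 DLX1-HA peaks, 4 overlapped a peak of BHLHB8-HA replicate 1 (66.7%, 95% exact interval 22.3 to 95.7%) and 3 a peak of replicate 2 (50.0%, 11.8 to 88.2%). Over the genome these shares were 73.5% and 54.7%, within the intervals. Overlap with SOX2-HA replicate 1 was seen for 3 peaks (48.5% over the genome), with EBF1-HA for 2 (14.7%), and with DLX6-HA, the other distal-less factor, for 1 (50.7%). When both peaks of a pair had to be covered by 50% or more, 1 of the 6 DLX1-HA peaks (16.7%) overlapped replicate 1 and 1 of the 6 overlapped replicate 2.

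Agreement of the BHLHB8-HA lists in the windows was near that over the genome. Of the 12 replicate 1 peaks, 6 shared at least 1 bp with a replicate 2 peak (50.0%, 95% exact interval 21.1 to 78.9%), against 53.3% over the genome and 56.7% in all protein-coding windows. Of the 16 replicate 2 peaks, 6 overlapped replicate 1 (37.5%, 15.2 to 64.6%), against 39.2% and 41.4%. Intervals cover counting error over peaks only, not the spread between libraries. By gene, the agreement was uneven: the lists agreed at 4 sites at Chrna1, at 1 each at Des and Cdh15, and at none at the other 7 genes. A peak in both lists was found for 3 members, in replicate 1 alone for 1, in replicate 2 alone for 5 and in neither for 1. Over protein-coding genes these shares were 65.8%, 2.09%, 12.9% and 19.1%. The replicate 2 peaks that were not shared were narrower (median 271.5 bp, n = 10) than the shared ones (median 476 bp, n = 6), as they were over the genome (318 and 478 bp). Peaks of replicate 1 had medians of 438 bp when not shared and 426.5 bp when shared, against 250 and 416 bp over the genome. Of 7 SOX2-HA replicate 1 peaks, 2 were shared with replicate 2 (21.02% over the genome), and both SOX2-HA replicate 2 peaks were shared (92.8% over the genome). The single FOXA1-HA replicate 1 peak was not shared (14.2% over the genome were).

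The E-box letters of the peaks were counted in their central 200 bp on both strands. Any CANNTG was present in 10 of 12 replicate 1 peaks (83.3%, 51.6 to 97.9%) and in 13 of 16 replicate 2 peaks (81.3%, 54.4 to 95.95%), beside 83.9% and 79.9% of all peaks of these lists. CAGCTG was present in 6 of 12 (50.0%, 21.1 to 78.9%) and 6 of 16 (37.5%, 15.2 to 64.6%), beside 37.8% and 35.1%. Of windows of the same length placed every 10 kb over the genome, 65.5% held CANNTG, within both intervals, and 7.20% held CAGCTG, below both. CATATG was present in 4 of 12 replicate 1 peaks (33.3%, 9.92 to 65.1%) and in 1 of 16 replicate 2 peaks, beside 12.02% and 8.90% of all peaks. In whole peaks CATATG was in 4 of 16 replicate 2 peaks, and in the central 100 bp the replicate 1 share was 16.7%. DLX1-HA peaks held CANNTG in 5 of 6 and CAGCTG in 1 of 6 cases, against 80.3% and 29.7% of all its peaks. In the 50 peaks of the other 25 lists, CANNTG was present in 48.0% (33.7 to 62.6%) and CAGCTG in 2.0% (0.0506 to 10.6%), against 63.3% and 11.4% of all peaks of those lists. Several of these peaks overlap each other and share their letters.

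**Figure D4:**
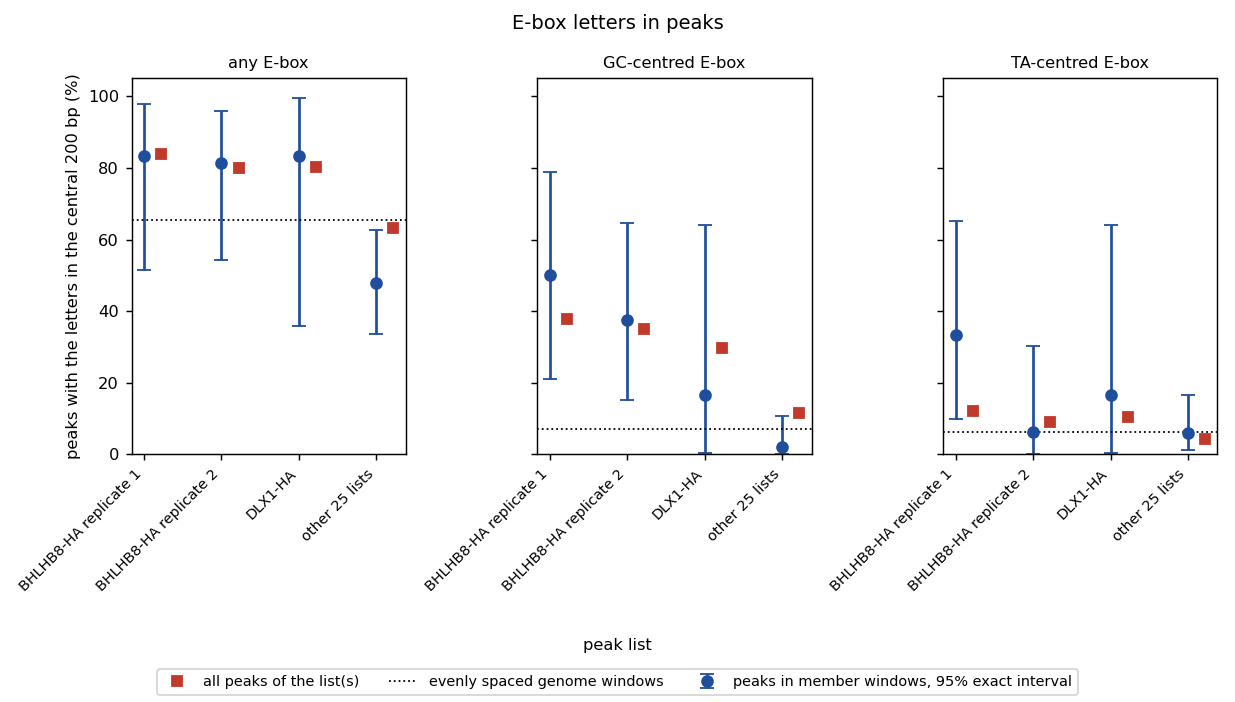
Percent of peaks in the windows with an E-box in the central 200 bp, by list, with 95% exact intervals (circles), beside all peaks of the same lists (squares) and windows spaced evenly over the genome (dotted line). The left panel counts any CANNTG, the middle CAGCTG and the right CATATG, and in the middle panel the BHLHB8-HA circles at 50.0% and 37.5% stand above the dotted line at 7.20%.

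Promoters were read from RefSeq (GRCm38) as 250 bases before to 50 after a start, for the 8 genes matched by symbol, with 10 windows because Mef2c has several. CANNTG was present in 8 of the 10 windows (72.3% of all 32851 promoters) and CAGCTG in 3, those of Chrna1, Ckm and Des (16.3%). The Chrna1 promoter held 2 copies of CAGCTG. No list had a peak in any of these promoter windows. The share of all promoters with a peak is not given, so this absence cannot be set against a background. Myod1 and Myf6 were not matched, so this does not cover them. At Myf6 the peak of OCT4-HA made with SOX2-YPET reached chr10:107494722, within 50 bases of the start of the gene record at 107494737.

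TEAD1, a TEA-domain factor known to bind MCAT letters of muscle genes, had 9 peaks in the windows, 14.8 per Mb against 8.30 per Mb over all protein-coding windows. They reached 5 of the 10 genes (55.5% of protein-coding genes). For most of the 9 peaks the nearest coding start was that of a neighbouring gene, namely Speg, Kcnc1 or Klc3. The letters CATTCC, or GGAATG on the other strand, were in the centre of 0 of these 9 peaks, which allows up to 33.6% by the exact interval, beside 4.51% of all TEAD1-HA peaks. CANNTG was present in 2 of the 9, beside 45.1% of all TEAD1-HA peaks, a share within the exact interval of this count. SOX2-HA replicate 1 reached 5 members (41.5%), with 7 peaks at Chrna1, Mef2c, Cdh15 and the stretch shared by Myf5 and Myf6. SOX2-HA replicate 2 reached 2 (16.0%), CDX2-HA 4 (40.7%), ZFP319-HA 4 (42.8%), DUXBL-HA 3 (44.6%) and DLX6-HA 2 (38.1%). The lists with few peaks gave SOX15-HA 2 members (13.7%), OCT4-HA with SOX2-YPET 2 by the same peak (10.4%), and 1 each for EBF1-HA (26.5%), SIX6-HA (17.5%), FOXA1-HA replicate 1 (17.0%), HLF-HA (9.48%) and BRACHYURY-HA (2.30%). None of the single-list counts has a replicate, so their spread is unknown.

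Other muscle genes were counted in the same way, and more of them had BHLHB8-HA peaks. Of 45 such genes, in 39 separate stretches, 40 had a replicate 1 peak, 39 a replicate 2 peak, 33 overlapping peaks of both and 24 a DLX1-HA peak. As percentages these were 88.9, 86.7, 73.3 and 53.3, where genes of like width averaged 67.8, 78.7, 59.1 and 46.2. The genes with the most sites held by both lists were Tnni1, which encodes slow skeletal troponin I, with 7, Mb (myoglobin) and Tnnt2 (cardiac troponin T) with 6 each, and Mef2a, Mef2d and Myl4 with 5 each, as also for Mymx and Sgca. Dmd, Lmod2 and Myh7 had 0 BHLHB8-HA peaks in both lists. The difference between the 10 genes and the 45 was not tested.

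The 15 genes of E proteins, Id proteins and other E-box factors included the partners of bHLH proteins. Overlapping peaks of both lists were present at 13 of them (86.7%), with 5 sites each at Id1, Tcf4, Twist2 and Zeb1 and 4 each at Tcf12 and Tcf3. Bhlha15 itself, the gene of the expressed factor, had 1 such site. For 10 secretory genes the count was 9, with 7 sites at Copz2, 6 at Atp2c2, 3 at Rab3d, 2 each at Cdkn1a and Nucb2 and 1 at Ccpg1. For 12 fibroblast genes it was 11, with 7 sites at S100a4, 5 at Pdgfrb, 4 at Prrx1, 3 each at Col1a1 and Col3a1 and 2 at Col1a2. For overlapping peaks of both lists, genes of like width averaged 55.1%, 60.7% and 61.7% beside these 3 gene lists. DLX1-HA peaks were present at 11 of the 15, 8 of the 10 and 9 of the 12 genes, where genes of like width averaged 44.3%, 47.4% and 47.4%. Each of these lists thus had higher shares than the 10 members for both BHLHB8-HA lists and for DLX1-HA.

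**Figure D5:**
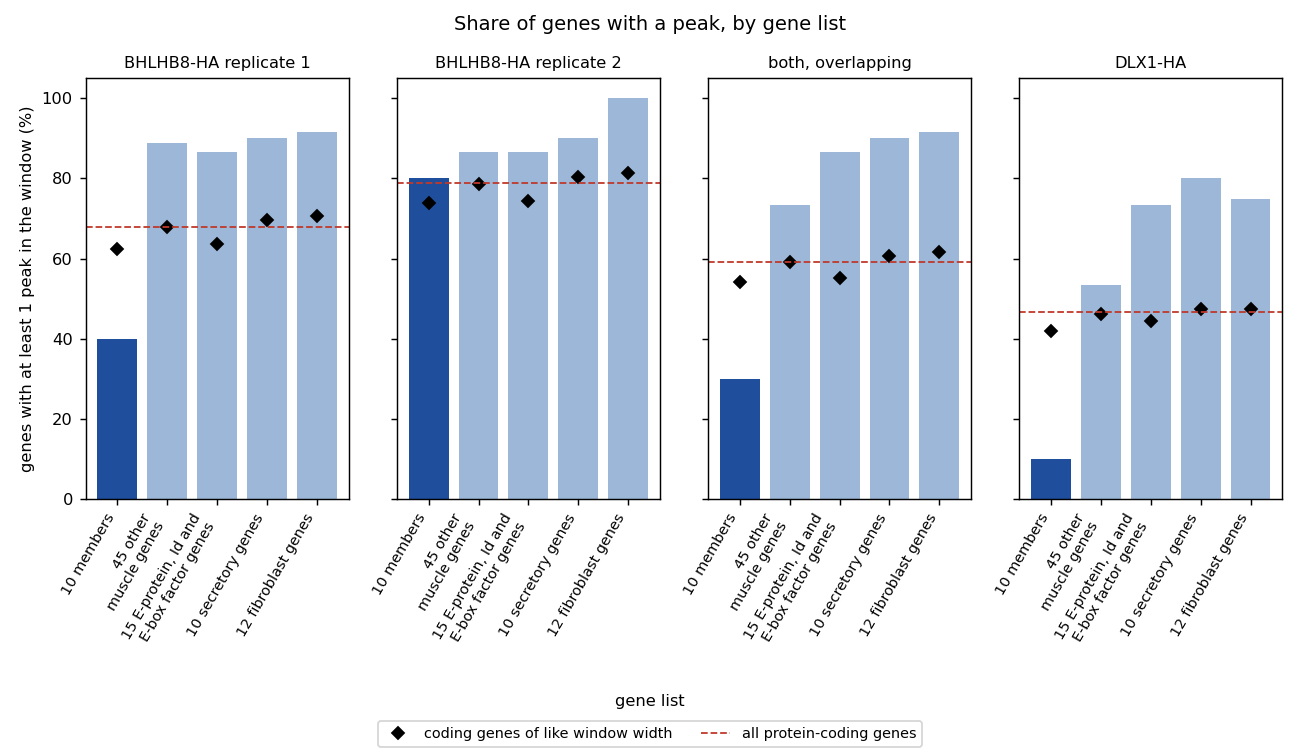
Percent of the genes of each list with at least 1 peak in the gene record plus 20 kb, for the BHLHB8-HA lists, for overlapping peaks of both, and for DLX1-HA. Diamonds give the mean over genes of like window width and dashed lines all protein-coding genes, and the dark bars of the 10 members stand at 40.0, 80.0, 30.0 and 10.0%.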

How the data were processed

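The authors aligned paired-end reads to mm10 with STAR 2.5.3a, removed duplicate reads with Picard, called peaks sample by sample with MACS2 2.1.1.20160309, and discarded those in input peaks or blacklisted regions. The deposited lists give only chromosome, start and end in bp, so depth is unknown. The input sample was not analysed here. Groups followed the labels. Peaks were assigned to gene records (GENCODE vM21) plus 20 kb by an overlap of at least 1 bp, and touching peaks were merged into sites. Distances run from peak or site midpoints to the start of the gene record, which for Ckm lies upstream of the RefSeq start. Intervals are Clopper-Pearson. Sequences came from GRCm38, using Python 3.11.15, SciPy 1.17.1 and pysam 0.24.0. Counting steps were tested on simulated data. The members and lists were chosen with earlier results of these data known. All members were named, as were up to 6 genes per other list with most sites of both BHLHB8-HA lists, ties by symbol. Bhlha15, Mymx, Sgca, Dmd, Lmod2, Myh7, CATTCC and the DLX1-HA, Mef2c and Myod1 sequences were chosen after values were seen. Alternatives covered flanks, peak width, overlap, widely shared sites, nearest start and each replicate.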

Additional observations from a re-analysis of the deposited data

How the results depend on the processing

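Over 87 values under alternatives for 20 results, 67 stayed within 1.5 times of a count or within the exact interval of a share, and 20 moved further. Since the intervals are wide, 3 of the 67 still differed by over 1.5 times: CATATG in 16.7% of replicate 1 peaks in the central 100 bp and in 4 of 16 whole replicate 2 peaks, and 16.7% of DLX1-HA peaks overlapping replicate 2 at a reciprocal overlap of 50%. With a 50 kb flank, members reached were 7 for BHLHB8-HA replicate 1, 6 for DLX1-HA and 6 for overlapping peaks of both lists, and peaks numbered 27, 39 and 13 for replicate 1, replicate 2 and DLX1-HA. Without a flank, replicate 2 reached 4 members, and peaks numbered 7, 6 and 3. With peaks of 300 bp or wider, replicate 2 reached 5 members with 10 peaks, and DLX1-HA had 2 peaks. No share of protein-coding genes is given for that width, so the 5 members cannot be set against a background. Leaving out a BHLHB8-HA list, so that the other stands alone, gave 4 to 8 members in place of the 3 with both. In the central 100 bp, CAGCTG was in 16.7% of replicate 1 peaks, CATATG in 0% of replicate 2 peaks, and each in 0% of DLX1-HA peaks. In whole peaks, 100% of replicate 1 peaks held CANNTG. At a reciprocal overlap of 50%, 16.7% of DLX1-HA peaks overlapped replicate 1. For other moves than those by a wider or narrower window, fewer peaks or fewer bases, the cause was not tested. No paired analysis was possible because the results come from no test and only 4 constructs have replicates. Depth, peak height and the share of cells with a bound factor are unknown from positions alone, and 2 lists of 1 factor give little measure of the spread.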
